A study of Homo sapiens with 12 samples.

Results

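The circadian clock genes are the 10 core genes of the transcriptional clock: BMAL1 (ARNTL), CLOCK, NPAS2, PER1, PER2, PER3, CRY1, CRY2, NR1D1 and NR1D2. They were chosen by name, as core clock genes, from the 23434 genes of a count table, and all 10 are in it. The table holds EU-seq, which sequences RNA labelled with 5-ethynyl-uridine (EU) during a short pulse and so follows newly made RNA, from 12 libraries of U2OS cells, a human osteosarcoma line. All cells carried MycER, Myc joined to the estrogen receptor's ligand-binding domain, which 4-hydroxytamoxifen (OHT) activates. The 4 groups of 3 libraries each were a control hairpin (shNT), shNT with OHT (shNT_OHT), a hairpin against CDK12 (shCDK12) and the latter with OHT (shCDK12_OHT). OHT was given at 300 nM for 40 h, and every group, the controls included, received 1 µg/mL doxycycline, 100 ng/mL nocodazole for 8 h with a release of 12 h, and 0.5 mM EU for 2 h. Each group therefore has a single collection time, and a shift in the phase of a rhythm and a change of its level cannot be told apart.

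In the mammalian clock, BMAL1 pairs with CLOCK or NPAS2, binds E-box sequences and activates the PER and CRY genes, whose proteins return to the nucleus and repress the pair. A further loop runs through NR1D1 and NR1D2, which encode the nuclear receptors REV-ERBα and REV-ERBβ: the BMAL1 pair activates them, and they repress BMAL1 and NPAS2 from response elements that the ROR receptors use to activate the same genes. Myc with its partner MAX binds E-boxes of the same sequence as the BMAL1 pair.

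Library totals ran from 1251695 to 10447836 counts, with the shNT and shNT_OHT libraries mostly the shallower. CDK12 was at 288.9 to 323 CPM (counts scaled to a common library size, with TMM factors over the 12 libraries) in shNT and at 277 to 297.6 CPM in shCDK12, a log2 difference of -0.08 ± 0.08 (SE, n = 3 per group) with an adjusted p of 0.447. The newly made CDK12 RNA thus did not separate those groups. The total CDK12 transcript was not measured, so that label was checked on newly made RNA only. With OHT, CDK12 was lower in the libraries labelled shCDK12_OHT (208.1 to 218 CPM) than in shNT_OHT (356.4 to 433.6 CPM). By label, its mean was higher with OHT in the shNT libraries (304 CPM in shNT, 396.8 in shNT_OHT). It was lower with OHT in those labelled shCDK12 (289.3 CPM in shCDK12, 213.7 in shCDK12_OHT). Of 10 known Myc targets, 8 rose and 0 fell in shNT_OHT against shNT, beside 9.05% of all tested genes higher and 8.29% lower. In shCDK12_OHT against shCDK12, 0 rose and 8 fell, beside 27.5% higher and 21.5% lower. Without any OHT, 7 rose in shCDK12 against shNT, beside 29.6% of all tested genes higher. The Myc targets therefore went with the OHT label in the shNT libraries and against it in those labelled shCDK12. A reversed response to OHT and OHT labels exchanged among those libraries cannot be told apart here, and neither was tested. Below, shCDK12 and shCDK12_OHT therefore stand for the libraries so labelled, any direction drawn from them is a direction by label, and the comparison of shNT_OHT with shNT is the 1 that uses none of these libraries. Markers of the mesenchymal lineage summed to 404 to 1581 CPM, with TWIST1 at or near 0 and ALPL at only 1.994 to 8.019 CPM. Epithelial markers summed to at most 15.2 CPM, neuronal to 24.4, blood to 2.15 and hepatocyte markers to 1.62 CPM. The epithelial KRT19 had 0 counts in every library. The mesenchymal sum was 1505 to 1581 CPM in shNT, 1003 to 1105 in shNT_OHT, 404 to 414 in shCDK12 and 566 to 583 CPM in shCDK12_OHT. FN1 alone had means of 659.3, 347.2, 38.21 and 100.1 CPM in these groups, in that order. VIM was not lower in shNT_OHT (mean 329.8 CPM) than in shNT (322.6), while RUNX2, SPARC, COL1A1, FN1 and ALPL had lower means there. The part of the mesenchymal sum in the results below was not tested.

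The members were tested with edgeR's quasi-likelihood test within the fit over all genes with a mean normalized count above 32, with Benjamini-Hochberg adjustment over all of them. A gene is called where its adjusted p is under 0.05. The labels do not say that the 3 libraries of a group came from separate cultures, so p-values measure the spread between libraries, which may be technical. In bulk cells, fewer cells that make a transcript and less of it made per cell cannot be told apart.

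In shNT_OHT against shNT, 4 of the 9 tested clock genes were called, 1 higher and 3 lower, beside 17.3% of the 10272 genes tested, 9.05% higher and 8.29% lower. The libraries of these groups did not overlap for 5 of the 9, beside 35.9% of all genes. In shCDK12 against shNT, 7 of 9 were called, 4 higher and 3 lower, beside 62% of genes, 29.6% higher and 32.4% lower. Here 6 of the 9 did not overlap, beside 64.5%, so both counts sit near the background of this comparison. In shCDK12_OHT against shCDK12, 6 of 10 were called, 2 higher and 4 lower, beside 48.9%, 27.5% and 21.5%. Here 6 did not overlap, beside 56.3%. In shCDK12_OHT against shNT_OHT, 5 of 9 were called, 2 higher and 3 lower, beside 45.4%, 23.8% and 21.6%, and 7 did not overlap, beside 55.2%. The interaction, which is the log2 OHT response in the libraries labelled shCDK12 minus that in shNT, called 6 of 9, 3 higher and 3 lower, beside 45.2%, 25.6% and 19.6%. The comparisons share libraries and are not independent. The median log2 change of the tested clock genes was 0.13 in shNT_OHT against shNT, where that of all genes was -0.03. It was -0.08 beside -0.03 in shCDK12 against shNT, 0.05 beside 0.05 in shCDK12_OHT against shCDK12, 0.18 beside 0.05 in shCDK12_OHT against shNT_OHT, and -0.10 beside 0.10 in the interaction, with members on both sides of 0 each time.

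**Figure D1:**
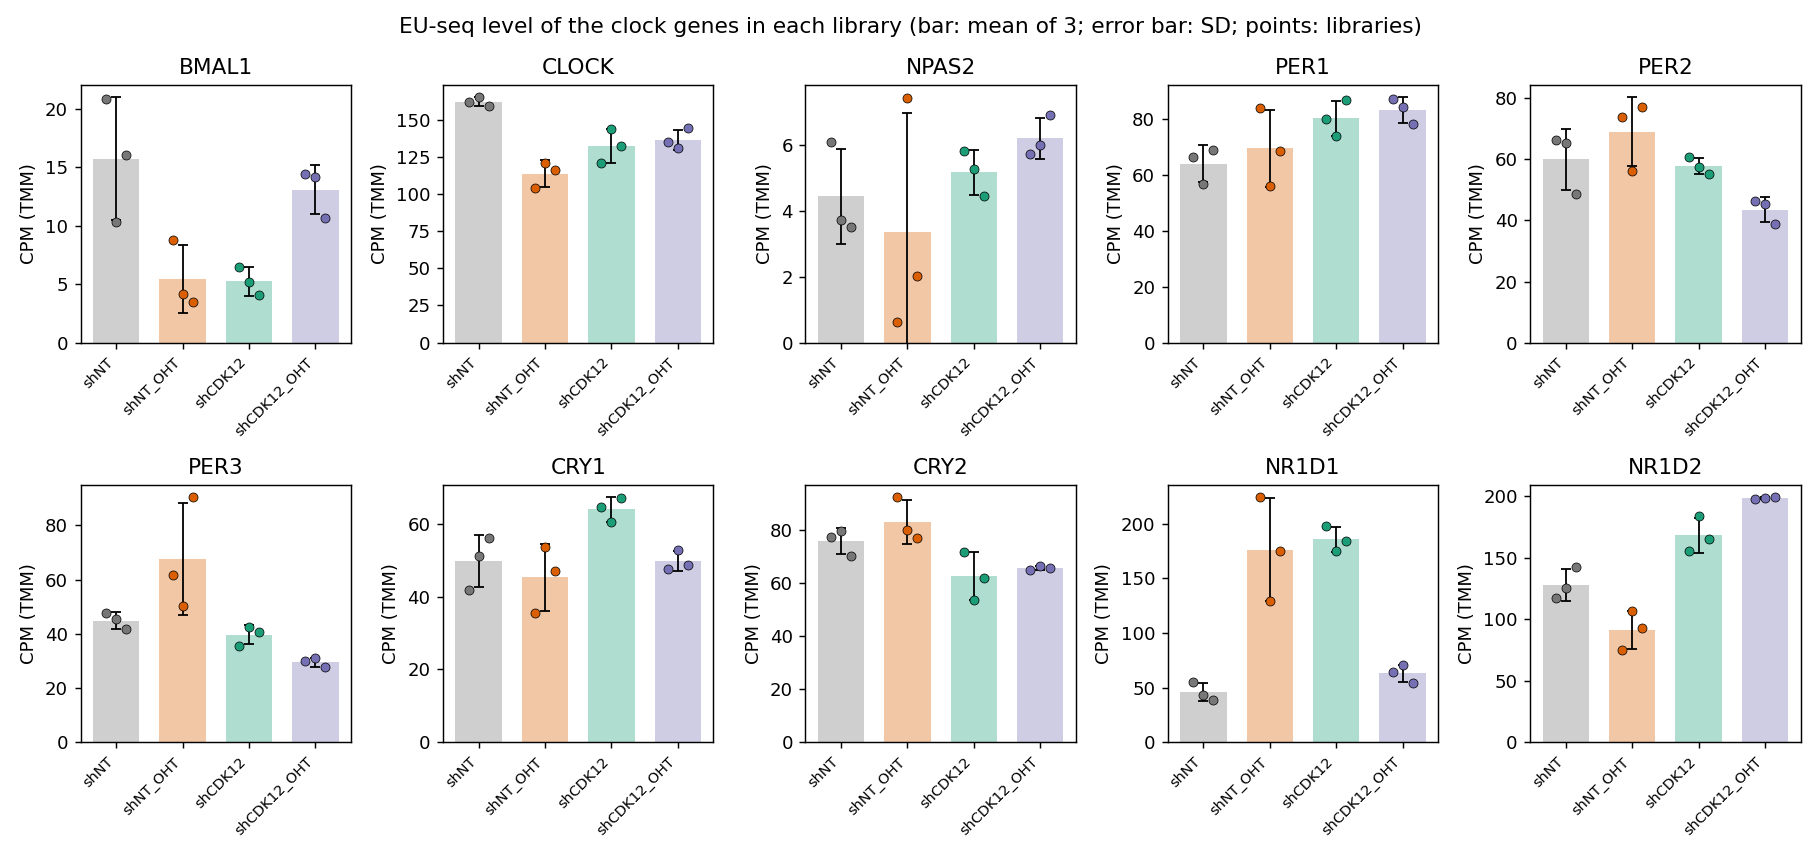
EU-seq level in CPM (linear axes from 0) of the 10 clock genes in each of the 12 libraries, with bars for the mean of 3 libraries and error bars for the SD, of which that of NPAS2 in shNT_OHT is cut off at 0. NR1D1 sits between 129.5 and 224.3 CPM in shNT_OHT and between 174.8 and 197.3 CPM in shCDK12, above every shNT and shCDK12_OHT library, while BMAL1 is lower in those groups, at 3.48 to 8.772 CPM.

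The promoters of NR1D1, NR1D2, PER1, PER2, PER3 and BMAL1 are shown because the clock proteins act through short motifs there. Those of CLOCK, NPAS2, CRY1 and CRY2 are not printed, so the printed set does not stand for all members. The motif counts that follow the sequences cover the windows of all members. The sequences are RefSeq windows on GRCh38.p14, read on the strand of the gene from 200 bases before the start site to 20 bases after it, and for BMAL1 a 30-base stretch after the start site. Capitals mark every match, on either strand, to CACGTG (the E-box), AACGTG (a variant E-box), AGGTCA or GGGTCA (core sites of ROR and REV-ERB receptors), TTATGTAA, TTATGCAA or TTACGTAA (the D-box of the PAR bZIP factors) and TGACGTCA (the cAMP response element), and no matches overlap. NR1D1 lies at chr17:40100570-40100789, minus strand, NR1D2 at chr3:23945921-23946140, plus strand, PER1 at chr17:8152385-8152604, minus strand, PER2 at chr2:238288591-238288810, minus strand, PER3 at chr1:7784091-7784310, plus strand, and BMAL1 at chr11:13277804-13277833, plus strand.
NR1D1: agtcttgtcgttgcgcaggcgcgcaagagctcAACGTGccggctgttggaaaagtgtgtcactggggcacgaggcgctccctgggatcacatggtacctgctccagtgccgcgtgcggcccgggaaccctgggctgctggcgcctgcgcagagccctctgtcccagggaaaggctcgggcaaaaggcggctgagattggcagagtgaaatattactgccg
NR1D2: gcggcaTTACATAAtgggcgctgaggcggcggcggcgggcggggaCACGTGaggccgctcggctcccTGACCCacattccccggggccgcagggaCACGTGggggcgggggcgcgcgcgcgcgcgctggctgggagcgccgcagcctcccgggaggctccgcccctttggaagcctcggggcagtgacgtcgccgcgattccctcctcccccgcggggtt
PER1: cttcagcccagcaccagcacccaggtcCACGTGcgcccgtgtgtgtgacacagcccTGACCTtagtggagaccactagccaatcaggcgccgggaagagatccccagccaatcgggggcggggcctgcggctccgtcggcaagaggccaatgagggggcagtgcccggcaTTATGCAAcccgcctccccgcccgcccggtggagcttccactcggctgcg
PER2: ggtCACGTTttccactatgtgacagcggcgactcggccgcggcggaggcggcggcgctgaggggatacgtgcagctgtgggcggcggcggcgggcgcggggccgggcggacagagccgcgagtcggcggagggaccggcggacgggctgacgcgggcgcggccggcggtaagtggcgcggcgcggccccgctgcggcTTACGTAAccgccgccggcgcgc
PER3: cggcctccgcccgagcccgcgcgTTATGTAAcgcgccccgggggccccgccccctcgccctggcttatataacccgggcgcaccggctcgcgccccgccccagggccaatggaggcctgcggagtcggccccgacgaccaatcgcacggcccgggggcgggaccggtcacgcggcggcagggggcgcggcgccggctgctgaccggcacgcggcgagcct
BMAL1: tagggaaggcagaaagtAGGTCAgggacgg

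Over the 15 windows that RefSeq gave for the 10 genes, from 250 bases before to 50 bases after a start site, CACGTG was found in 2 windows, those of 2 genes. PER1 held it once, at -173, and NR1D2 held it at -155 and at -105, while 7.26% of 35116 windows of all genes had a match. The variant AACGTG was found in 5 of the 15 windows, those of 5 genes, CLOCK (-187), PER2 (-197), CRY1 (-89), CRY2 (-188) and NR1D1 (-168), beside 5.34% of windows. A receptor core site was in 8 of the 15 windows, from 6 genes, beside 25.6% of windows, and the match in BMAL1 began at +32. A D-box was in 4 of the 15 windows, those of PER1, PER2, PER3 and NR1D2, beside 1.84% of windows, and the cAMP response element in 0, beside 1.85%. A match shows only that these letters are in the window, and the counts themselves were made on another build, hg19, so no read was placed on these stretches.

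BMAL1, the partner of CLOCK and NPAS2 in the activating pair, was lowest in shNT_OHT and shCDK12. It was at 20.85, 10.34 and 16.04 CPM in the 3 shNT libraries and at 8.772, 4.125 and 3.48 CPM in shNT_OHT. It was at 6.485, 5.142 and 4.071 CPM in shCDK12 and at 14.4, 14.17 and 10.7 CPM in shCDK12_OHT. Every shNT library was above every shNT_OHT and shCDK12 library and every shCDK12_OHT library above both as well, while shNT overlapped shCDK12_OHT and shNT_OHT overlapped shCDK12.

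BMAL1 fell in shNT_OHT against shNT by 1.47 on the log2 scale (SE 0.412, adjusted p = 0.0248). It fell by 1.59 in shCDK12 against shNT (SE 0.301, adjusted p = 6.66e-05). With OHT, it rose by 1.35 in shCDK12_OHT against shCDK12 (SE 0.223, adjusted p = 7.83e-05). It was also higher in shCDK12_OHT than in shNT_OHT, by 1.23 (SE 0.35, adjusted p = 0.0147). The interaction was 2.80 (SE 0.476, adjusted p = 8.53e-05), and by label the OHT responses of the hairpin backgrounds had opposite signs. These calls rest on few reads, from 5 to 28 counts per library in shNT_OHT and 32 to 89 in shNT. In shNT_OHT against shNT the mean normalized count of BMAL1 was 34.2, just above the limit of 32, and it was 30.7 and untested where libraries were scaled to their geometric mean. BMAL1 passed that limit through shNT, the group where it was higher, at a mean of 15.74 CPM beside 5.459 in shNT_OHT. Its mean normalized count was 53.8 in shCDK12 against shNT, 48.3 in shCDK12_OHT against shNT_OHT and 51 in the interaction. There too it passed mostly through the groups where it was higher, shNT and shCDK12_OHT (mean 13.09 CPM), beside 5.233 CPM in shCDK12. The call in shNT_OHT against shNT was also lost without shNT replicate 3, without shNT_OHT replicate 2 or without shNT_OHT replicate 3. The call in shCDK12_OHT against shNT_OHT was lost without shNT_OHT replicate 3 or without shCDK12_OHT replicate 1 or 2. Without shNT_OHT replicate 1 the latter difference was 1.85.

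CLOCK, the DNA-binding partner of BMAL1, was highest in shNT. It was at 162.3, 165.5 and 159.9 CPM in shNT and at 104, 121.3 and 116.6 CPM in shNT_OHT. It was at 121.1, 144.1 and 132.9 CPM in shCDK12 and at 135, 131 and 144.4 CPM in shCDK12_OHT. The shNT libraries stood above all 9 others, shCDK12 overlapped both OHT groups, and shNT_OHT stayed below shCDK12_OHT. CLOCK fell in shNT_OHT against shNT by 0.52 on the log2 scale (SE 0.13, adjusted p = 0.0139) and in shCDK12 against shNT by 0.29 (SE 0.0943, adjusted p = 0.00968). In shCDK12_OHT against shCDK12 the difference was 0.04 (95% interval -0.147 to 0.219), and its sign turned with upper-quartile normalization and with DESeq2, while thinning to equal depth gave a called 0.31. In shCDK12_OHT against shNT_OHT it was 0.29 (adjusted p = 0.072), which a fit of all 12 libraries and thinning to equal depth brought past the threshold. The interaction was 0.56 (SE 0.149, adjusted p = 0.00447). The call in shNT_OHT was lost without any 1 of the shNT libraries, and that in shCDK12 without shNT replicate 2 or with upper-quartile normalization. Thinning moved the CLOCK difference in shCDK12 against shNT to -0.48 and its interaction to 0.87. TMEM165, whose gene overlaps that of CLOCK, was at 7.032 to 24.98 CPM over all libraries.

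NPAS2, which can take the place of CLOCK, was near the limit of detection, with 2 to 63 counts per library. It was at 3.508 to 6.09 CPM in shNT, 0.6266 to 7.424 in shNT_OHT, 4.441 to 5.79 in shCDK12 and 5.705 to 6.893 CPM in shCDK12_OHT. The range of the shNT_OHT libraries took in all 9 others. NPAS2 passed the filter only in shCDK12_OHT against shCDK12, where the log2 difference was 0.26 (95% interval -0.241 to 0.756, adjusted p = 0.387), and no difference was detectable at this depth.

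Of the repressors, PER3 and PER2 were lowest in shCDK12_OHT. PER3 was at 47.55, 45.48 and 41.6 CPM in shNT and at 61.72, 50.32 and 90.47 CPM in shNT_OHT. It was at 35.67, 42.39 and 40.71 CPM in shCDK12 and at 30.02, 30.9 and 27.75 CPM in shCDK12_OHT. The shNT_OHT libraries were above, and the shCDK12_OHT libraries below, all libraries of the other groups, and shNT overlapped shCDK12. PER3 fell in shCDK12_OHT against shCDK12 by 0.43 on the log2 scale (SE 0.122, adjusted p = 0.00779) and was lower in shCDK12_OHT than in shNT_OHT by 1.20 (SE 0.196, adjusted p = 6.7e-04). In shNT_OHT against shNT the difference was 0.61 (SE 0.206) and missed the threshold at an adjusted p of 0.0547, which DESeq2, upper-quartile and RLE normalization, no filter on low counts and a fit of all 12 libraries each brought below it, as did leaving out shNT_OHT replicate 1 or replicate 2. Without shNT_OHT replicate 3 that difference was 0.36 and further from the threshold. In shCDK12 against shNT the difference was -0.18 (95% interval -0.474 to 0.107). The interaction was -1.04 (SE 0.239, adjusted p = 0.00144). Thinning moved the PER3 difference in shCDK12_OHT against shCDK12 to -0.78.

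PER2 was at 66.29, 65.38 and 48.61 CPM in shNT and at 73.94, 56.1 and 77.13 CPM in shNT_OHT. It was at 60.68, 57.61 and 55.33 CPM in shCDK12 and at 46.32, 45.35 and 38.82 CPM in shCDK12_OHT. The libraries of shNT, shNT_OHT and shCDK12 overlapped, and those of shCDK12_OHT were below all of them. PER2 fell in shCDK12_OHT against shCDK12 by 0.40 (log2, SE 0.106, adjusted p = 0.00429) and was lower than in shNT_OHT by 0.67 (SE 0.154, adjusted p = 0.00483). It differed by 0.21 in shNT_OHT against shNT (95% interval -0.176 to 0.589) and by -0.08 in shCDK12 against shNT (95% interval -0.351 to 0.192). The interaction was -0.62 (SE 0.206, adjusted p = 0.0196), and it was lost without shNT replicate 3, without shNT_OHT replicate 3 or without shCDK12_OHT replicate 3. Thinning moved PER2 to -0.70 in shCDK12_OHT against shCDK12, to -1.09 against shNT_OHT and to -1.03 in the interaction.

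PER1 spanned 1.3-fold between its lowest and highest group mean, the narrowest span of the 10 genes. It was at 56.8 to 69.16 CPM in shNT, 56.1 to 83.96 in shNT_OHT, 74.19 to 86.79 in shCDK12 and 78.36 to 87.35 CPM in shCDK12_OHT. The shNT libraries were below those of shCDK12 and shCDK12_OHT, and shNT_OHT overlapped the other 3 groups. PER1 was higher in shCDK12 than in shNT by 0.33 on the log2 scale (SE 0.125, adjusted p = 0.0243), a call lost without shNT replicate 2, without shCDK12 replicate 3, or with all libraries thinned to equal depth. In shNT_OHT against shNT the difference was 0.14 (95% interval -0.249 to 0.53) and in shCDK12_OHT against shCDK12 0.06 (95% interval -0.14 to 0.259). Its interaction was -0.10, with a 95% interval from -0.509 to 0.31.

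The cryptochromes, the direct repressors of the BMAL1 pair, had narrow spans of 1.41-fold for CRY1 and 1.33-fold for CRY2. CRY1 was at 41.93 to 56.13 CPM in shNT, 35.4 to 53.62 in shNT_OHT, 60.34 to 66.99 in shCDK12 and 47.68 to 52.86 CPM in shCDK12_OHT. The shCDK12 libraries were above all 9 others, which overlapped each other. CRY1 was higher in shCDK12 than in shNT by 0.38 (log2, SE 0.136, adjusted p = 0.0198) and fell in shCDK12_OHT against shCDK12 by 0.35 (SE 0.1, adjusted p = 0.00686). The first of these calls was lost without shNT replicate 1 or without shCDK12 replicate 3, and the latter in a fit of all 12 libraries, while thinning moved it to -0.54. CRY2 was at 70.16 to 79.63 CPM in shNT, 76.84 to 92.42 in shNT_OHT, 53.73 to 71.8 in shCDK12 and 64.8 to 66.27 CPM in shCDK12_OHT. Its call in shCDK12 against shNT (log2 change -0.30, adjusted p = 0.0472) came with overlapping libraries and was lost with upper-quartile or RLE normalization, DESeq2, no filter, edgeR's own filter or a fit of all 12 libraries, and without shNT replicate 1 or 2 or without shCDK12 replicate 2 or 3. Without shCDK12 replicate 2 it was -0.19. In shCDK12_OHT against shNT_OHT the libraries of CRY2 did not overlap, and its difference of -0.33 (adjusted p = 0.0574) passed the threshold with upper-quartile or RLE normalization, with DESeq2 and in a fit of all 12 libraries. In shNT_OHT against shNT the difference was -0.15 for CRY1 (95% interval -0.593 to 0.289) and 0.13 for CRY2 (95% interval -0.195 to 0.458). The interactions were -0.20 for CRY1 (95% interval -0.649 to 0.242) and -0.05 for CRY2 (95% interval -0.441 to 0.331).

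**Figure D2:**
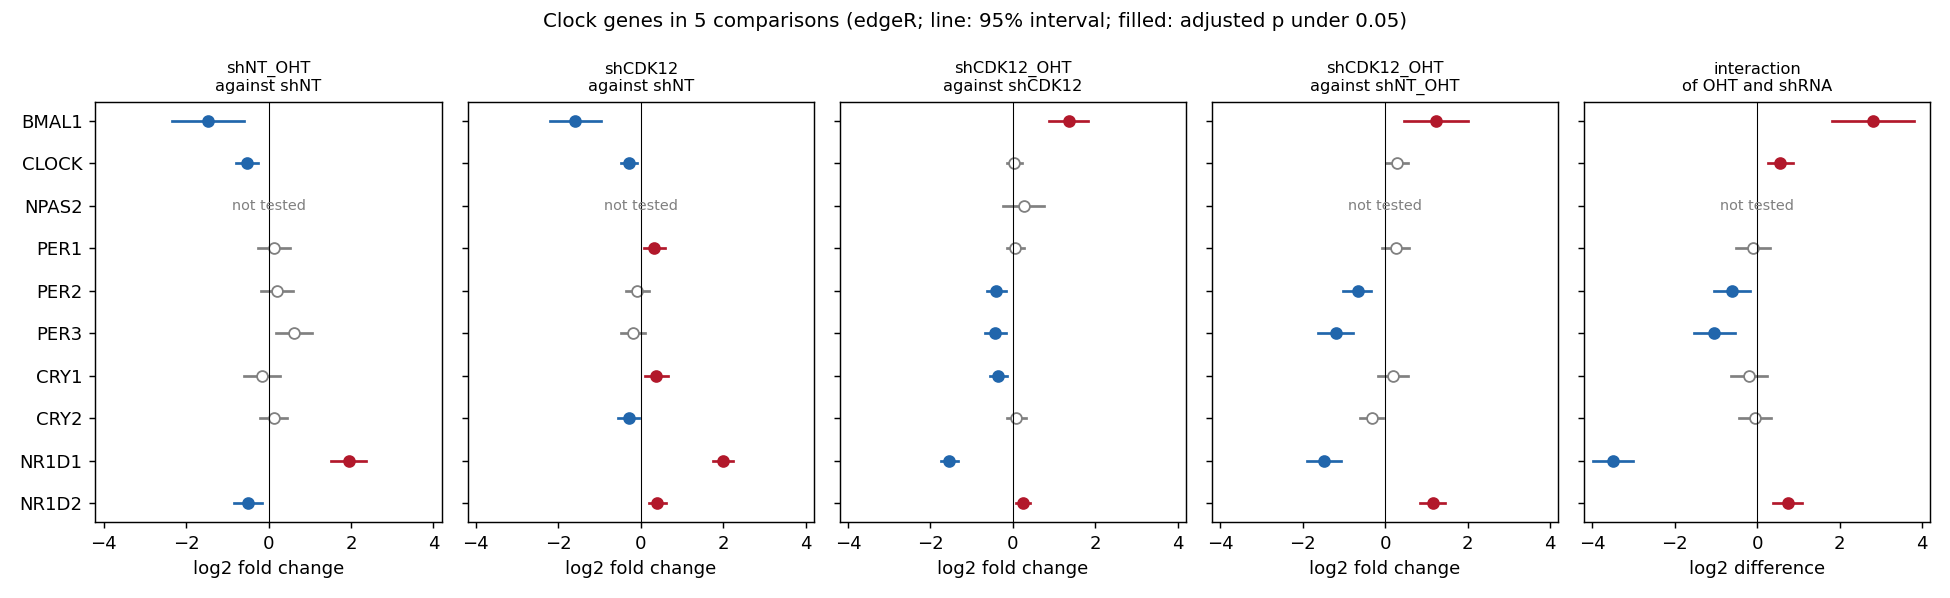
Log2 fold change of each clock gene with its 95% interval in the 4 pairwise comparisons and, in the last panel, the log2 difference between the OHT responses, with filled points where the adjusted p is under 0.05, red for higher and blue for lower. NR1D1 (1.94, 1.99, -1.55, -1.48 and -3.50) and BMAL1 (-1.47, -1.59, 1.35, 1.23 and 2.80) have opposite signs in all 5 panels.

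NR1D1, which encodes REV-ERBα, changed most among the members. It was at 55.28, 43.52 and 39.09 CPM in shNT and at 224.3, 129.5 and 174.9 CPM in shNT_OHT. It was at 197.3, 174.8 and 184.3 CPM in shCDK12 and at 64.25, 70.36 and 54.24 CPM in shCDK12_OHT. All 6 libraries of shNT_OHT and shCDK12 were above all 6 of shNT and shCDK12_OHT, and within either set of 6 the groups overlapped. NR1D1 rose in shNT_OHT against shNT by 1.94 on the log2 scale, 3.84-fold (SE 0.197, adjusted p = 2.25e-05). It rose in shCDK12 against shNT by 1.99, 3.97-fold (SE 0.117, adjusted p = 2.23e-13). With OHT it fell in shCDK12_OHT against shCDK12 by 1.55 (SE 0.0986, adjusted p = 1.48e-09), and it was lower in shCDK12_OHT than in shNT_OHT by 1.48 (SE 0.186, adjusted p = 1.37e-04). The interaction was -3.50 (SE 0.232, adjusted p = 7.13e-10). These 5 calls held under every alternative tried. The THRA gene overlaps NR1D1 on the opposite strand, and whether counting used strand is not given in the sources used here. THRA itself was at 7.496 to 24.78 CPM over all libraries, with means of 9.84 CPM in shNT, 13.9 in shNT_OHT, 21.0 in shCDK12 and 13.5 CPM in shCDK12_OHT. Its log2 difference in shNT_OHT against shNT was 0.57 with an adjusted p of 0.253. In shCDK12_OHT against shCDK12 THRA fell by 0.62 (adjusted p = 0.00347), the direction of NR1D1, and the part of shared reads in either gene was not tested.

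NR1D2, which encodes REV-ERBβ, did not follow NR1D1. It was at 116.9, 125.1 and 142.3 CPM in shNT and at 75.19, 106.4 and 92.79 CPM in shNT_OHT. It was at 155.9, 184 and 165.1 CPM in shCDK12 and at 197.8, 198.7 and 199.4 CPM in shCDK12_OHT. None of the 4 groups overlapped, from shNT_OHT as the lowest through shNT and shCDK12 to shCDK12_OHT as the highest. NR1D2 fell in shNT_OHT against shNT by 0.50 on the log2 scale (SE 0.161, adjusted p = 0.0438), where NR1D1 rose. It rose in shCDK12 against shNT by 0.41 (SE 0.102, adjusted p = 0.00131) and in shCDK12_OHT against shCDK12 by 0.23 (SE 0.0811, adjusted p = 0.0231). It was higher in shCDK12_OHT than in shNT_OHT by 1.16 (SE 0.137, adjusted p = 9.48e-05), and the interaction was 0.74 (SE 0.171, adjusted p = 0.00153). The call in shNT_OHT against shNT was lost without any 1 library other than shNT_OHT replicate 2 and under upper-quartile or RLE normalization, edgeR's own filter and thinning. The call in shCDK12_OHT against shCDK12 was lost without any 1 library other than shCDK12 replicate 2, under upper-quartile normalization, with DESeq2 and in a fit of all 12 libraries. NKIRAS1, whose gene overlaps that of NR1D2, was at 21.77 to 42.9 CPM, and its log2 difference in shNT_OHT against shNT was -0.26 with an adjusted p of 0.547.

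A ratio of 2 genes within a library does not depend on how libraries are scaled. The raw count of BMAL1 over that of NR1D1 was 0.377, 0.238 and 0.41 in shNT and 0.0391, 0.0318 and 0.0199 in shNT_OHT. It was 0.0329, 0.0294 and 0.0221 in shCDK12 and 0.224, 0.201 and 0.197 in shCDK12_OHT. The ratio was thus lower in all 6 libraries of shNT_OHT and shCDK12 than in any of the other 6, with every shNT library above every shCDK12_OHT library. BMAL1 over NR1D2 was 0.0827 to 0.178 in shNT, 0.0375 to 0.117 in shNT_OHT, 0.0247 to 0.0416 in shCDK12 and 0.0537 to 0.0728 in shCDK12_OHT. In this ratio shNT_OHT overlapped each other group, and shCDK12 was below shNT and shCDK12_OHT. The ratios are not corrected for gene length, so only their change between libraries can be read.

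**Figure D3:**
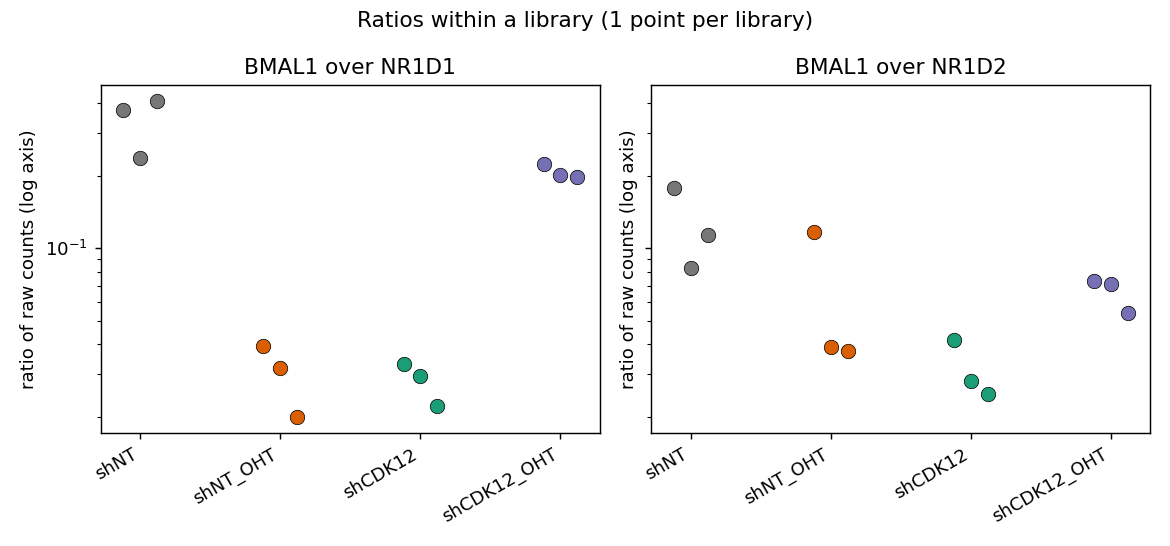
Ratio of the raw counts of BMAL1 to those of NR1D1 and of NR1D2 in each of the 12 libraries, on a log axis, with 1 point per library. The ratio to NR1D1 lies between 0.197 and 0.41 in shNT and shCDK12_OHT and between 0.0199 and 0.0391 in the other groups, a gap that the ratio to NR1D2 does not have.

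By the span between the lowest and the highest group mean, NR1D1 varied 4.04-fold, more than 95.4% of all genes with a value in the fit of 12 libraries, and BMAL1 3.01-fold, more than 89.5%. PER3 varied 2.28-fold and NR1D2 2.17-fold, more than 76.8% and 73.2% of genes. NPAS2 varied 1.84-fold and PER2 1.59-fold. CLOCK, CRY1, CRY2 and PER1 varied by 1.3 to 1.43-fold, less than most genes. The order of the group means was the same for PER2 and PER3, from shNT_OHT through shNT and shCDK12 down to shCDK12_OHT, and reversed for NR1D2.

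Of the other clock pathway genes, a list of 36 written from general knowledge, 7 of 32 tested were called in shNT_OHT against shNT, 2 higher and 5 lower, beside 17.3% of all genes, 9.05% higher and 8.29% lower. HLF, a PAR bZIP factor that acts on the D-box, rose by 1.80 (log2, SE 0.322, adjusted p = 0.00199) and its relative TEF by 0.76 (SE 0.137, adjusted p = 0.00215). The largest falls were those of KAT2B, an acetyltransferase and coactivator (log2 change -1.40, SE 0.293, adjusted p = 0.00519), and of BMAL2, the paralog of BMAL1 (-0.85, SE 0.249, adjusted p = 0.0304). HLF had 12 to 35 counts per library in shNT and 19 to 91 in shNT_OHT, and KAT2B 48 to 117 and 11 to 29. Both passed the filter on a mean over the groups that came mostly from the group where the gene was higher. The median log2 change of the list was -0.04, beside -0.03 over all genes.

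In shCDK12 against shNT, 28 of the 33 tested pathway genes were called, 11 higher and 17 lower, beside 62% of all genes, 29.6% higher and 32.4% lower. Their median log2 change was -0.26, beside -0.03 over all genes. DBP, the PAR bZIP factor that reads out the BMAL1 pair, rose by 1.95 (SE 0.263). TIPIN, the partner of TIMELESS at replication forks, rose by 1.80 (SE 0.155), and NAMPT, an enzyme of NAD synthesis under clock control, by 1.49 (SE 0.133). BHLHE40, which represses E-box genes, fell by 1.79 (SE 0.0713), BMAL2 by 1.36 (SE 0.206) and KAT2B by 1.32 (SE 0.224). The largest adjusted p of these 6 was 1.62e-05, that of KAT2B. Against that background, 5 of the 6 ubiquitin ligases and proteases fell and 1 rose, and 5 of the 8 corepressors and coactivators fell and 1 rose.

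In shCDK12_OHT against shCDK12, 20 of 34 pathway genes were called, 12 higher and 8 lower, beside 48.9%, 27.5% and 21.5% of all genes, with a median of 0.06 beside 0.05. BHLHE40 rose by 1.04 (SE 0.0708), USP2, a protease that stabilizes clock proteins, by 1.02 (SE 0.209), and KAT2B by 0.92 (SE 0.171). TIPIN fell by 1.41 (SE 0.126), RORB by 1.30 (SE 0.251) and HLF by 1.21 (SE 0.23), and the largest adjusted p of these 6 genes was 5.73e-04, that of USP2. RORB passed the filter only in this comparison, through shCDK12, with 41 to 73 counts per library there and 14 to 44 in shCDK12_OHT. BMAL2 rose by 0.54 (SE 0.187, adjusted p = 0.0233), as its paralog BMAL1 did. In shCDK12_OHT against shNT_OHT, 19 of 33 were called, 11 higher and 8 lower, beside 45.4%, 23.8% and 21.6%, with a median of -0.05 beside 0.05. ID2, which blocks other helix-loop-helix proteins, was higher by 1.72 (SE 0.199), DBP by 1.17 (SE 0.199) and SIRT1, a deacetylase, by 1.09 (SE 0.168). HLF was lower, with a log2 difference of -2.11 (SE 0.276), as were BHLHE41 (-1.92, SE 0.225) and TEF (-1.04, SE 0.117). The largest adjusted p of these 6 genes was 8.66e-04, that of DBP. HLF passed the filter here mostly through shNT_OHT, the group where it was higher, at a mean of 22.75 CPM beside 5.456 in shCDK12_OHT.

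The interaction called 17 of 33 pathway genes, 10 higher and 7 lower, beside 45.2%, 25.6% and 19.6%, with a median of 0.05 beside 0.10 over all genes. Its size rests on the OHT labels of the libraries labelled shCDK12, against which the Myc targets went. By those labels it was highest for KAT2B (2.32, SE 0.304, adjusted p = 4.72e-06) and BMAL2 (1.39, SE 0.33, adjusted p = 0.00187). It was lowest for HLF (-3.03, SE 0.393, adjusted p = 4.17e-06), TIPIN (-1.97, SE 0.376, adjusted p = 2.77e-04) and NAMPT (-0.90, SE 0.272, adjusted p = 0.0107). BMAL2 and KAT2B, like BMAL1, fell in shNT_OHT and in shCDK12 against shNT and rose in shCDK12_OHT against shCDK12. HLF, like NR1D1, rose in the first pair of comparisons and fell in the last. Its relative TEF did not follow, with means of 98.08 CPM in shNT, 165.6 in shNT_OHT and 76.54 in shCDK12. Of the 10 Myc targets, 8 rose, 7 rose and 8 fell in the same comparisons, in that order. The shares of all tested genes called in those directions were 9.05%, 29.6% and 21.5%. Genes outside the clock had both patterns, as the nearest profiles below show, and the share of all genes with either was not counted. CIART did not pass the filter in any comparison.

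**Figure D4:**
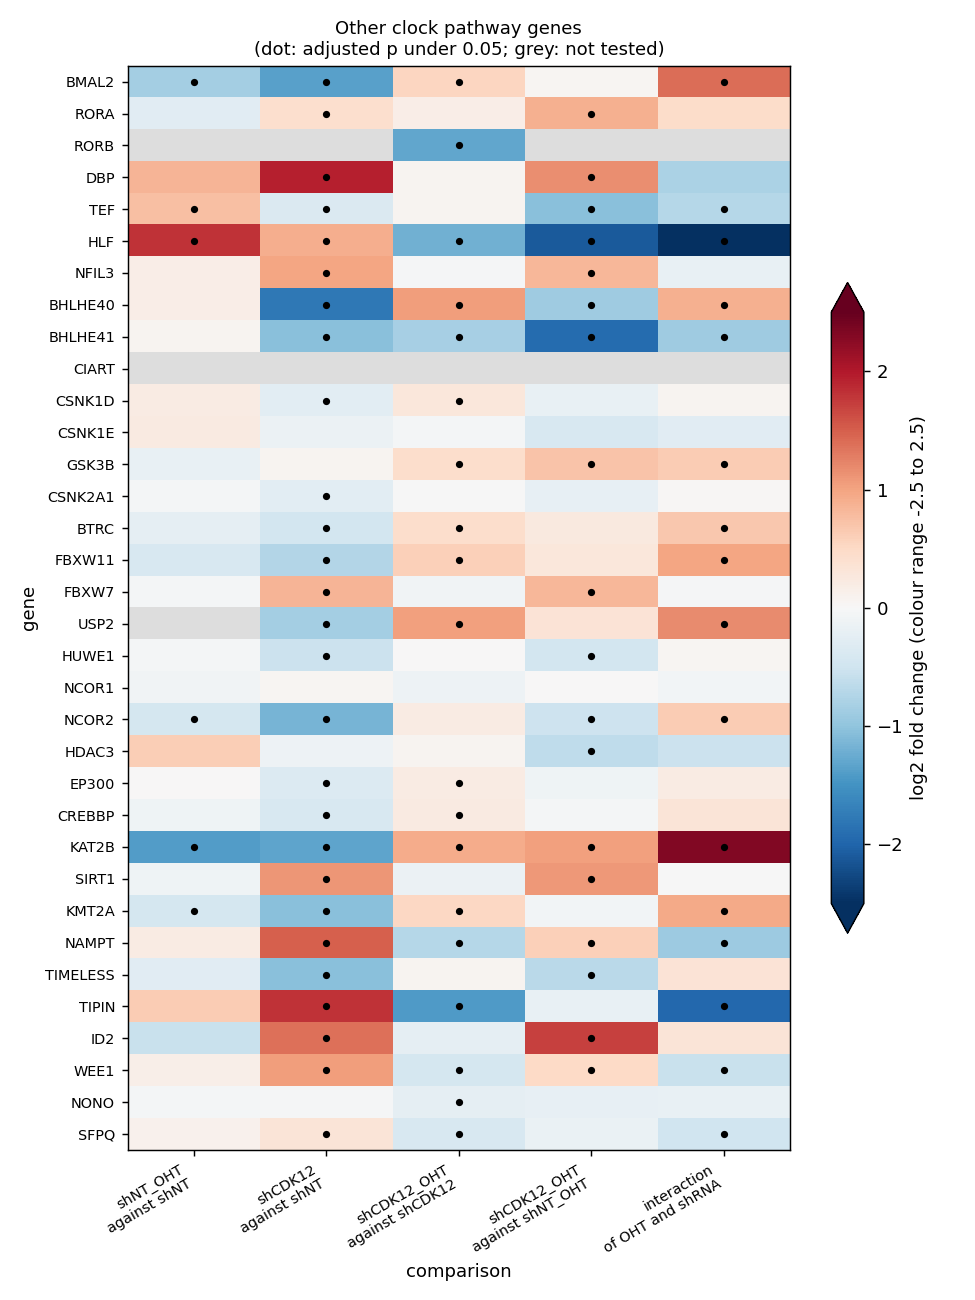
Log2 fold change of 34 of the other clock pathway genes (vertical) in the 5 comparisons (horizontal), coloured from blue for lower to red for higher over -2.5 to 2.5, with a dot where the adjusted p is under 0.05 and grey where the gene was not tested. Dots number 6, 27, 19, 18 and 16 from left to right, and HLF, at -3.03 in the interaction, lies beyond the colour range.

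For the 3 clock genes with the widest spans, the most similar profiles were sought among the 11699 genes tested in the fit of 12 libraries, by the root mean square (RMS) difference in log2 CPM centred on the mean of the gene. NR1D1, whose own RMS deviation was 0.906, was nearest to HK2, a hexokinase (RMS difference 0.231), OLIG2, a helix-loop-helix factor (0.283), and TXNIP, a thioredoxin-binding protein (0.285). TXNIP had group means of 37.9 ± 7.45 CPM in shNT, 170 ± 14.7 in shNT_OHT, 225 ± 7.4 in shCDK12 and 63.6 ± 7.33 CPM in shCDK12_OHT (SD, n = 3). BMAL1 (own deviation 0.784) was nearest to SDK2 (0.329), CDS2 (0.345) and ABAT (0.347). PER3 (own deviation 0.45) was nearest to RACK1 (0.117), a ribosomal scaffold protein, RPS14 (0.131), a ribosomal protein, and NDOR1 (0.154). These genes were ranked on the values shown, so their likeness is a description.

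**Figure D5:**
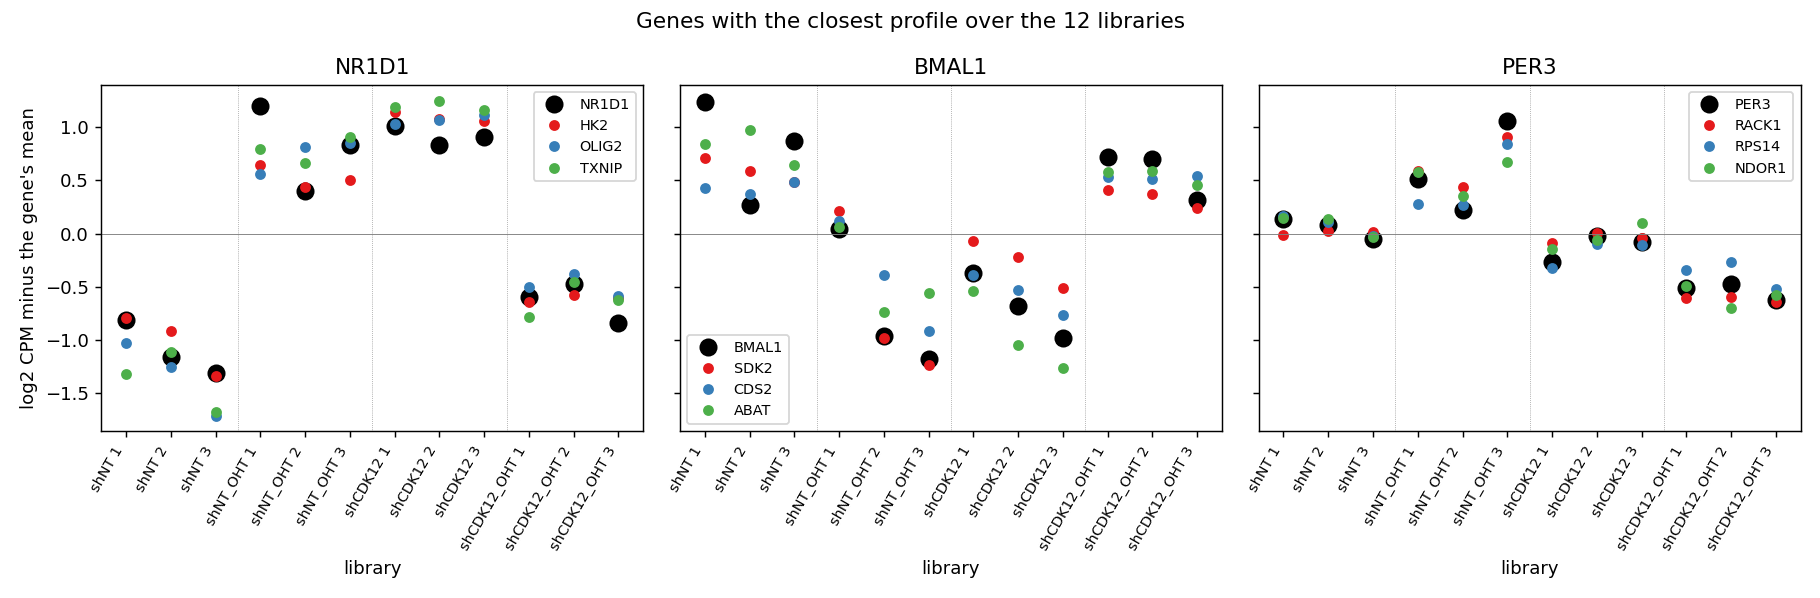
Log2 CPM minus the mean of the gene (vertical) in each of the 12 libraries (horizontal) for NR1D1, BMAL1 and PER3 in black and the 3 genes with the nearest profile in colour. HK2, at an RMS difference of 0.231, and the other genes of its panel are high in the 6 libraries of shNT_OHT and shCDK12, as NR1D1 is.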

How the data were processed

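EU-seq counts were analysed for 12 libraries in 4 groups of 3. The authors deposited raw counts per gene by Entrez identifier. The submitters' processing notes name STAR 2.7.5c, featureCounts 1.4.5-p1 and the build hg19, while strand and annotation are not given in the sources used here. RNA was 40 µg human with 10 µg mouse per library, and how mouse reads were handled is not given in the sources used here, so a change in the total of newly made RNA cannot be seen. Symbols from RefSeq matched 23284 of 23434 genes, and 150 without a symbol stayed in the tests. The libraries hold 1251695 to 10447836 counts, so precision for low genes is poorest in shNT and shNT_OHT. Every pair of libraries within a group differed by more than sampling noise (chi-square over its degrees of freedom from 2.69 to 9.31), so none was counted as a repeat.

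Counts were tested with edgeR 4.0.16 in R 4.3.3 (TMM, quasi-likelihood, Benjamini-Hochberg, adjusted p under 0.05), with the 6 libraries of each comparison in a fit and all 12 for the interaction, for genes whose mean normalized count passed 32, scaled to the arithmetic mean library. That scaling was set after the files were seen. Named genes are the 10 members, the 3 largest rises and 3 largest falls called among the other pathway genes in each comparison, CDK12 and MYC, and the 3 nearest profiles (log2 CPM with a pseudocount of 0.5) of the 3 members with the widest span. Of the pathway list, 2 genes are counted but not reported here by name. The members and lists were chosen with earlier results of these data known. Alternatives were DESeq2 1.42.0, upper-quartile and RLE normalization, other filters, a replicate block, a fit of all libraries, thinning to 1251695 counts and leaving out each library. Tested on simulated data with 200 genes changed 2-fold, the comparisons recovered 152 of 192 tested changed genes in shNT_OHT against shNT, 181 of 193 in shCDK12 against shNT, 188 of 197 in shCDK12_OHT against shCDK12, 155 of 193 in shCDK12_OHT against shNT_OHT and 120 of 197 in the interaction, with 5 to 12 false calls. The simulation changed as many genes up as down and left the others unchanged, while 17.3% to 62% of genes were called in the data. Its false calls therefore do not carry over to comparisons where many genes move.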

Additional observations from a re-analysis of the deposited data

Results flagged for a closer look

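The response to OHT differed between the libraries labelled shCDK12 and those of shNT, by the interaction term of edgeR over all 12 libraries, for 6 of the 9 clock genes tested, beside 45.2% of all genes. The log2 difference, as the response in shCDK12 minus that in shNT, was 2.80 for BMAL1 (adjusted p = 8.53e-05), 0.56 for CLOCK (0.00447 as the adjusted p), -0.62 for PER2 (adjusted p = 0.0196), -1.04 for PER3 (adjusted p = 0.00144), -3.50 for NR1D1 (adjusted p = 7.13e-10) and 0.74 for NR1D2 (adjusted p = 0.00153). The 10 Myc targets, whose response went against the OHT label in the libraries labelled shCDK12, had a median interaction of -1.25, and their part in these differences was not tested.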

How the results depend on the processing

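Of 46 member results, 23 kept their sign and their side of the threshold under every alternative that could be run, 16 changed a call and 8 a sign, 1 of them both, and 0 signs turned while called. The replicate numbers gave no pairing: deviations of same-numbered libraries correlated at a median r of 0.029 (2 of 18 above 0.1, the highest 0.31) and others at -0.017, and the replicate block changed 0 of 46 calls and 0 signs. Signs turned for uncalled values. With upper-quartile normalization, PER2 in shCDK12 against shNT came to 0.00945, and CLOCK and PER1 in shCDK12_OHT against shCDK12 to -0.0256 and -0.00319. With DESeq2, CLOCK there came to -0.0175. With thinned libraries, CRY1 in shCDK12_OHT against shNT_OHT came to -0.027 and the interaction of CRY2 to 0.12. A single fit of all libraries called 3256 genes in shNT_OHT against shNT, in place of 1782. Thinning called 2 clock genes and 3 other pathway genes in shNT_OHT against shNT, 4444 genes in shCDK12 against shNT, 9 pathway genes and 3234 genes in shCDK12_OHT against shCDK12, 3115 genes in shCDK12_OHT against shNT_OHT, and 11 pathway genes and 3225 genes in the interaction. It discards reads, so fewer calls follow from its construction. Leaving out 1 library at a time gave 1 to 4 clock genes, 3 to 8 pathway genes and 670 to 2523 genes in shNT_OHT against shNT, 4 to 7, 24 to 27 and 6425 to 7132 in shCDK12 against shNT, 5 to 6, 16 to 20 and 5000 to 6500 in shCDK12_OHT against shCDK12, 4 to 6, 14 to 21 and 3520 to 6238 in shCDK12_OHT against shNT_OHT, and 5 to 6, 16 to 18 and 4609 to 5829 in the interaction. The clock count in shNT_OHT against shNT fell to 1 without any shNT library, where CLOCK and NR1D2 were no longer called, and to 2 without shNT_OHT replicate 3, and that in shCDK12 against shNT fell to 4 without shNT replicate 2 or without shCDK12 replicate 3. It turned 6 uncalled signs, with ranges of -0.265 to 0.0214 for CRY1 in shNT_OHT against shNT, of -0.0208 to 0.0921 for CLOCK, -0.0102 to 0.118 for PER1 and -0.0339 to 0.191 for CRY2 in shCDK12_OHT against shCDK12, and of -0.204 to 0.0499 for PER1 and -0.179 to 0.0523 for CRY2 in the interaction. BMAL1 in shNT_OHT against shNT could not be tested with the geometric filter scaling, which was chosen after the data were seen, with thinning, or without shNT replicate 1 or 2, and DESeq2 gave it no adjusted p. Upper-quartile normalization moved the median interaction of all genes from 0.10 to -0.016.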

Other observations

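MYC counts cannot be told apart between the endogenous gene and the Myc part of the fusion. MYC was at 2013 to 2221 CPM in shNT, 1706 to 2199 in shNT_OHT, 1035 to 1214 in shCDK12 and 2000 to 2095 CPM in shCDK12_OHT. Its log2 difference was -0.90 in shCDK12 against shNT (adjusted p = 1.8e-10) and 0.88 in shCDK12_OHT against shCDK12 (adjusted p = 4.98e-08), while it was -0.09 in shNT_OHT against shNT (adjusted p = 0.575). The shCDK12 libraries were below all 9 others. Within a library, PER2 over CRY1 in raw counts was 0.866 to 1.58 in shNT, 1.05 to 2.09 in shNT_OHT, 0.826 to 0.955 in shCDK12 and 0.796 to 0.972 in shCDK12_OHT, so shNT_OHT stood above both groups labelled shCDK12 and overlapped shNT.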
